A study of Homo sapiens with 9 samples.

Results

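Cells given curcumin together with CuCl2 were compared with cells given curcumin alone, which is the step of the study in which copper was the labelled difference. The comparison used 6 of the 9 sequenced libraries and the 13443 genes that averaged 1 TPM or more over the 9. TPM is a unit of transcript abundance in which reads are scaled by gene length and every library adds up to a common total. The cells are labelled HepG2, a human hepatocellular carcinoma line, and every culture was first exposed for 24 h to palmitic acid, a saturated fatty acid, at 750 µM. The PA-Cur group (3 libraries) was then incubated for 12 h with curcumin, the yellow polyphenol of turmeric, at 20 µM. The PA-Cur-Cu group (3 libraries) was incubated for the same 12 h with 20 µM curcumin and 5 µM CuCl2. The PA group (3 libraries) had palmitic acid alone and gives the level without curcumin. No incubation after the 24 h is described for it, so PA differs from the other groups by those 12 h as well as by curcumin. The labels describe no cells given CuCl2 without curcumin, no vehicle control and no cells without palmitic acid. A difference between the groups is therefore that of CuCl2 in the presence of curcumin and after palmitic acid. Whether the 3 replicates of a group were separate cultures is not stated, so p-values measure the spread among libraries, and that spread may be technical.

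Copper is an essential cofactor that is toxic when free. Cells take it up through the transporter CTR1, the product of SLC31A1, pass it to enzymes by chaperones and export it through the pumps ATP7A and ATP7B. Metallothioneins are small cysteine-rich proteins that bind zinc and copper. Their genes lie in a cluster on chromosome 16 and are activated by the zinc-sensing transcription factor MTF1, which binds short metal response elements in their promoters. Curcumin activates the NRF2 pathway of antioxidant genes in many cell types and can chelate metals, copper included.

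Depth is unknown, since TPM keeps no read totals. Each library held 13208 to 13737 genes at 1 TPM or more, and genes of the mitochondrial chromosome held 10.4% to 12.4% of the TPM with curcumin and 10.7% to 11.8% with curcumin and CuCl2. Across genes, log2 values correlated no less between libraries of different groups (0.978 to 0.985) than between libraries of 1 group (0.975 to 0.986). The second PA-Cur library lay farthest from the others of its group: its median distance from their mean was 0.214 on the log2 scale, against 0.138 and 0.139 for those 2 and 0.0779 to 0.115 in PA-Cur-Cu. It also had the highest mitochondrial share of the 6, 12.4%. Its part in the results was not tested beyond the values without it, which are given for some of the results below. Of 23 hepatocyte markers, 20 had a mean under 1 TPM in the 6 libraries, and ALB, the albumin gene, was listed at 0, so the line is given here only as its label. The exceptions were CPS1, the first enzyme of the urea cycle, at 278.39 to 357.46 TPM, the plasma protein gene VTN and the transcription factor gene FOXA1. Markers of fibroblasts were under 1 TPM for 8 of 10 genes, of leukocytes for 9 of 11 and of endothelium for 9 of 9. The 10 fibroblast markers summed to 14.5 to 18.5 TPM with curcumin and 11.8 to 15.2 with CuCl2 added, and the part of this difference in any result below was not tested. In RNA from whole cultures, fewer cells of a type and less RNA per cell cannot be told apart.

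Of the 12 metallothionein genes, MT1X, MT1E and MT2A passed the expression minimum whatever the CuCl2 libraries held, and these 3 stood higher in every library with CuCl2 than in any with curcumin alone. MT1X was 1.94 higher on the log2 scale, MT1E 1.21 and MT2A 0.68. Without the second PA-Cur library the values were 1.89, 1.16 and 0.60. MT1F was near 0 with curcumin and at 3.84 TPM or more with CuCl2 added. Over all genes, 0 of 13443 (0%) passed the threshold of adjusted p under 0.05 in limma, a linear model whose gene variances are moderated across genes, with Benjamini-Hochberg adjustment. Without adjustment, 215 genes (1.60%) had p under 0.05, of which 103 (0.766%) were higher and 112 (0.833%) lower with CuCl2. The lowest adjusted p was 0.0692, shared by MT1X and MT1F; the latter had been selected by the minimum, as described below, and its p is not read as a result. In 839 genes (6.24%) the libraries of the groups did not overlap, 354 (2.63%) higher and 485 (3.61%) lower. The differences given here are therefore described with their errors and none is called a rise or a fall.

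The promoters of MT1X and MT2A are shown because they carry many copies of the metal response element core, and that of the zinc exporter gene SLC30A1, another target of MTF1, because it carries fewer. Each runs from 250 bases before to 50 after the transcription start, from RefSeq on GRCh38.p14, 5′ to 3′ on the gene's strand. Capitals mark matches to TGCACNC or TGCGCNC on either strand, with overlapping matches counted once. MT1X lies on the plus strand at chr16:56682220-56682519, MT2A on the plus strand at chr16:56608334-56608633 and SLC30A1 on the minus strand at chr1:211579112-211579411.
MT1X: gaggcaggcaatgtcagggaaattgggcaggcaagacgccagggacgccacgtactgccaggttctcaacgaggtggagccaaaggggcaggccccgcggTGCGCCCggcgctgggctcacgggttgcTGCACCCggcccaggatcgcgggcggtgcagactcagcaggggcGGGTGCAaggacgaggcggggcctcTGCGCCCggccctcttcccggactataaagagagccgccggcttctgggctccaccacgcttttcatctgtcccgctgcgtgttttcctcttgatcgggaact
MT2A: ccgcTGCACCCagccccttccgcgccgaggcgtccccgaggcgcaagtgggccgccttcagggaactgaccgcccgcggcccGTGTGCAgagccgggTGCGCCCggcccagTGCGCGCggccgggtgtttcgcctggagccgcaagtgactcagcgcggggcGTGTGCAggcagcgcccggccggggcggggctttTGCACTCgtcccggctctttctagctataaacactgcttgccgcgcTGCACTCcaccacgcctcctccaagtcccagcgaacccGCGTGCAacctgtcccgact
SLC30A1: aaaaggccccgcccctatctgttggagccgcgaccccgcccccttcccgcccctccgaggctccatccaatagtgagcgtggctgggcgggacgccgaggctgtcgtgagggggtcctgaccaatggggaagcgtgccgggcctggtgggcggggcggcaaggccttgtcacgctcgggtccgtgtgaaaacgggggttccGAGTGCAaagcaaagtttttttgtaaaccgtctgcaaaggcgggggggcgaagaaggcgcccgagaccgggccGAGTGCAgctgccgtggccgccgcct
The MT1X window held 4 matches, that of MT2A 8 and that of SLC30A1 2. Among 35116 promoters of this length, 7.51% held 2 or more, 0.339% held 4 or more and 0.0171% held 8 or more. A match describes letters only and is neither a bound site nor a cause. Entries for other metallothioneins with a promoter in the table held 8 matches for MT1H, 3 for MT1B and 3 for MT4. These 3 genes were near 0 in the libraries. MT1H thus had as many matches as MT2A at a level near 0, among the 5 family members with a promoter in the table.

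MT1X (chromosome 16, 56682424 to 56684196 in GENCODE 29 on GRCh38) stood at 27.03, 30.76 and 42.16 TPM with curcumin and at 130.59, 132.69 and 121.29 TPM with CuCl2 added. The group means were 33.3 ± 7.88 and 128 ± 6.07 TPM (SD, n = 3 each). The lowest library with CuCl2 lay far above the highest without it. The log2 fold change, taken on log2(TPM + 1) here and throughout, was 1.94 (SE 0.23, 95% interval 1.42 to 2.45, limma adjusted p = 0.0692). MT1X was 21.36, 33.15 and 42.74 TPM with palmitic acid alone, and the PA-Cur libraries lay within that range.

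MT1E (chromosome 16, 56625475 to 56627112) encodes another member of the MT1 subfamily. Its values were 20.49, 20.99 and 26.53 TPM with curcumin and 53.03, 53.60 and 53.99 TPM with CuCl2 added. The 3 libraries with CuCl2 lay within 1 TPM of each other, at a mean of 53.5 ± 0.483 TPM against 22.7 ± 3.35 (SD, n = 3 each). The log2 fold change was 1.21 (SE 0.16, 95% interval 0.86 to 1.56, limma adjusted p = 0.0947). With palmitic acid alone MT1E was 24.19, 20.20 and 32.03 TPM.

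MT2A (chromosome 16, 56608199 to 56609497) encodes the most abundant metallothionein of these cells and of most human tissues. It stood at 1074.73, 926.79 and 1116.29 TPM with curcumin and at 1753.88, 1589.11 and 1640.05 TPM with CuCl2 added. The groups did not overlap, at 1039 ± 99.6 and 1661 ± 84.4 TPM (SD, n = 3 each). The log2 fold change was 0.68 (SE 0.18, 95% interval 0.28 to 1.08, limma unadjusted p = 0.00373, adjusted p = 1). The PA libraries spread more widely, at 799.97, 1057.34 and 1452.98 TPM, and their highest value came near the lowest with CuCl2. On the TPM scale the mean of MT2A differed by more than those of MT1X and MT1E together, although its log2 difference was the smallest of the 3.

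MT1F (chromosome 16, 56657694 to 56660698) was listed at 0, 0.73 and 0 TPM with curcumin and at 5.71, 3.84 and 3.92 TPM with CuCl2 added. With palmitic acid alone it was 0.53, 0.30 and 0.26 TPM. Its mean over the 9 libraries reached 1 TPM only through the libraries with CuCl2, so it had to differ, and it is left out of counts and medians of the family. The log2 fold change was 2.18 (SE 0.25). That value depends on the number added before the logarithm: it was 0.85 with 5 TPM added and 4.48 with 0.1 TPM added.

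The other metallothionein genes were at or near 0 and were not tested. MT1G was listed at 0 in the 6 libraries without CuCl2 and at 0.64, 0.77 and 1.00 TPM in those with it. MT1B and MT1H were each listed at 0.35 TPM in 1 library with CuCl2 and at 0 elsewhere. MT4, a gene of stratified epithelium, was at 1.48 TPM in 1 library with curcumin and at 0 in the others. MT1A, MT1M, MT1HL1 and MT3 were listed at 0 in all 9. A listed 0 in an estimated table can also be a failed estimate. The difference with CuCl2 thus lay in the same few genes that were already transcribed, with MT1F and MT1G as the members that were near 0 without it.

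Metallothionein transcripts resemble each other, so reads can be divided between the genes in more than 1 way. Of the 50-base words in the MT1X transcripts of GENCODE 29, 43.6% also occurred in another gene, against 7.1% for MT1E, 3.27% for MT1F and 4.24% for MT2A. The sum over the family depends less on that division. It is not free of it, since MT1X shares words with genes outside the 12, such as MT1XP1, and TPM is scaled by gene length. The 12 protein-coding genes summed to 1122.25, 980.75 and 1184.98 TPM with curcumin and to 1944.2, 1780.01 and 1820.6 TPM with CuCl2 added. The groups did not overlap, and the means of 1096 ± 105 and 1848 ± 85.5 TPM (SD, n = 3 each) gave a ratio of 1.69. MT2A made up most of this sum, and without it the ratio was 3.30, from 56.7 ± 10.9 to 187 ± 5.82 TPM. The sums of PA and PA-Cur averaged 1162 ± 344 and 1096 ± 105 TPM and differed by less than their spread.

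**Figure D1:**
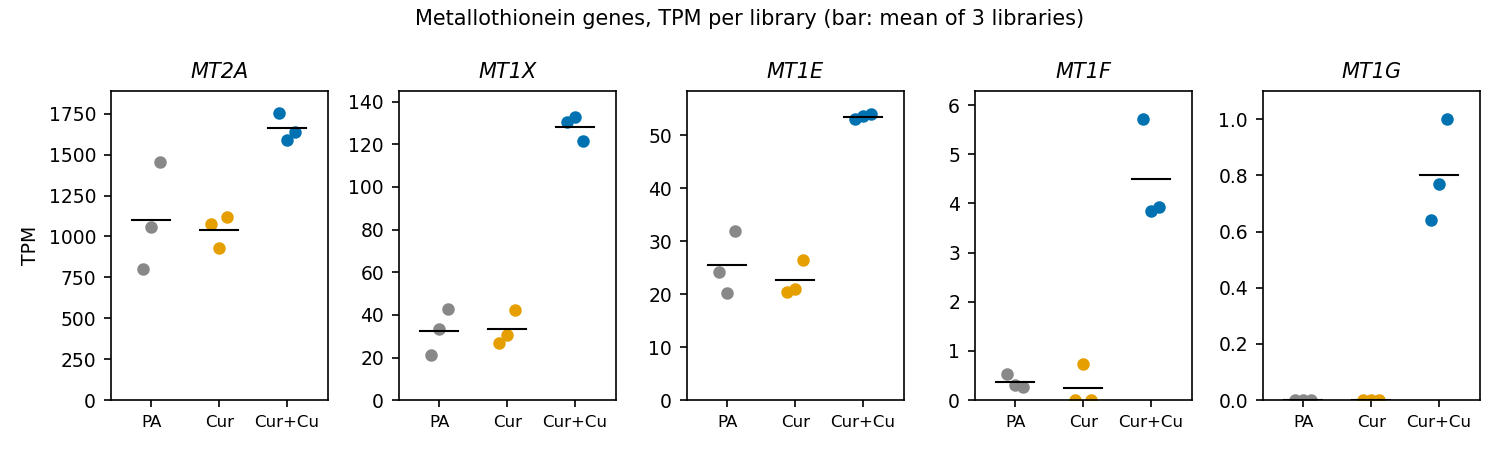
TPM (vertical axis, linear, from 0) of 5 metallothionein genes in each library of palmitic acid alone (PA), with curcumin (Cur) and with curcumin and CuCl2 (Cur+Cu); points are libraries and bars are means of 3. In each panel the 3 libraries with CuCl2 lie above the 6 others. For MT1F, which passed the expression minimum only through the CuCl2 libraries, this was favoured by selection. MT1G was flagged because it was at 0 in the 6 others, so its separation adds nothing.

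The adjusted p-values of these genes moved across the threshold with the settings. In 20 alternative settings the log2 fold change of MT1X ranged from 1.80 to 2.11 and its adjusted p from 0.0235 to 0.499, past the threshold in 3. MT1E ranged from 1.09 to 1.33 with adjusted p from 0.0235 to 0.777, past it in 2. MT2A, at 0.60 to 0.73, passed it in none. Fitting only the 6 libraries compared gave an adjusted p of 0.0423 for MT1X and 0.0453 for MT1E. Without the third PA library both had 0.0235, and without the first PA library MT1X had 0.0275. Without the second PA-Cur library the adjusted p was 0.228 for MT1X and 0.346 for MT1E. An exact permutation test of 3 against 3 libraries cannot give a two-sided p below 0.1.

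**Figure D2:**
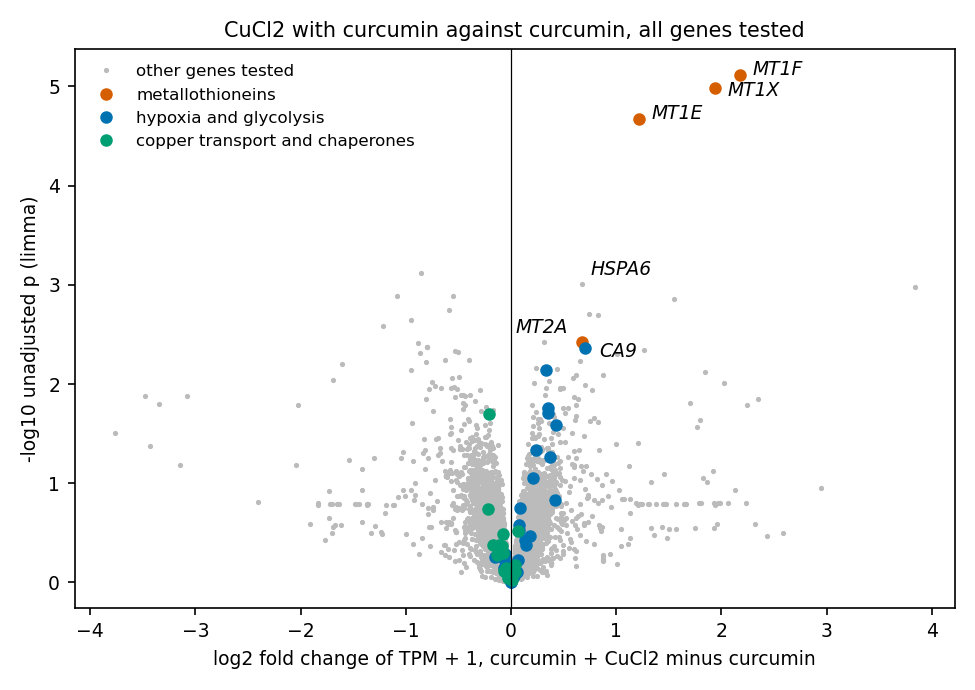
Log2 fold change of TPM + 1, curcumin with CuCl2 minus curcumin (horizontal axis), against -log10 of the unadjusted limma p (vertical axis) for the 13443 genes tested, each a point, with 3 gene lists in colour. MT1X and MT1E stand at the top right, with MT1F, which the expression minimum had selected, and the copper transport genes lie close to 0.

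Genes that move copper differed little. Of 23 copper transport and chaperone genes, 19 were tested, with a median log2 fold change of -0.06 against -0.01 over all genes. Estimates were below 0 for 15 of the 19, against 7286 of 13443 genes. None had unadjusted p under 0.05 in the higher direction (0.766% of all genes) and 1 in the lower (0.833%). SLC31A1, the high-affinity copper importer, stood at 30.62, 36.44 and 30.07 TPM with curcumin and at 30.43, 33.22 and 31.56 TPM with CuCl2 added. The groups overlapped, and the 95% interval of its log2 fold change ran from -0.34 to 0.29. ATP7A, the copper exporter, had 4.43, 6.38 and 4.25 TPM against 3.99, 5.06 and 3.87 TPM, a log2 fold change of -0.17 (95% interval -0.63 to 0.29).

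Chaperones and copper enzymes lay in the same range. ATOX1, which carries copper to the export pumps, had a log2 fold change of -0.02 (95% interval -0.42 to 0.37). COX17, which carries it to cytochrome oxidase, had -0.07 (-0.30 to 0.16). CCS, the chaperone of superoxide dismutase 1, had -0.22 (-0.56 to 0.12), and SOD1 itself 0.07 (-0.07 to 0.21). CUTC, a copper-binding protein gene, stood at 45.9, 52.29 and 52.1 TPM with curcumin and at 43.3, 44.17 and 41.75 TPM with CuCl2 added. Its groups did not overlap (log2 fold change -0.21, limma unadjusted p = 0.0199), and the lower values were close to the 39.86 to 41.97 TPM of palmitic acid alone. For 17 of the 19 genes the 95% interval lay within 1.5-fold in either direction, and for all 19 within 2-fold. ATP7B and CP, the copper pump and the copper carrier of plasma that liver cells make, and HEPH and STEAP2 were below the expression minimum.

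Estimates for zinc handling genes were likewise small. MTF1 itself was 3.41, 4.53 and 3.76 TPM with curcumin and 3.76, 4.49 and 4.11 TPM with CuCl2 added. SLC30A1, whose promoter is shown above, stood at 20.82, 29.82 and 20.84 TPM against 24.48, 26.45 and 24.41 TPM. Both overlapped between groups, with log2 fold changes of 0.07 (95% interval -0.31 to 0.45) and 0.09 (-0.33 to 0.52). None of the 17 zinc handling genes tested, zinc transporters and MTF1, had unadjusted p under 0.05. Over all genes the share was 1.60%, so that count says little by itself. Their median was -0.02, and 16 of the 17 intervals lay within 1.5-fold. A difference of SLC30A1 of the size seen for MT1X or MT1E lay outside its interval.

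Copper excess can kill cells by cuproptosis, in which copper binds lipoylated enzymes of the mitochondrial tricarboxylic acid cycle. Of 19 genes of that process and of lipoylation, 18 were tested and none had unadjusted p under 0.05 (1.60% of all genes), with a median of -0.01. FDX1, the ferredoxin that acts upstream of lipoylation, had 11.32, 10.98 and 11.99 TPM against 10.80, 11.45 and 12.22 TPM, so the groups overlapped fully (95% interval -0.23 to 0.24). DLAT, the lipoylated subunit of pyruvate dehydrogenase, had a log2 fold change between -0.43 and 0.42. LIPT1, a lipoyl transferase, had the largest of the list at 0.22 (-0.13 to 0.58). The interval lay within 2-fold for all 18. Genes of iron-sulfur proteins, another target of copper, gave 0 of 27 with unadjusted p under 0.05 and a median of -0.01. At a share of 1.60% over all genes, counts of 0 in lists of this size say little by themselves.

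**Figure D3:**
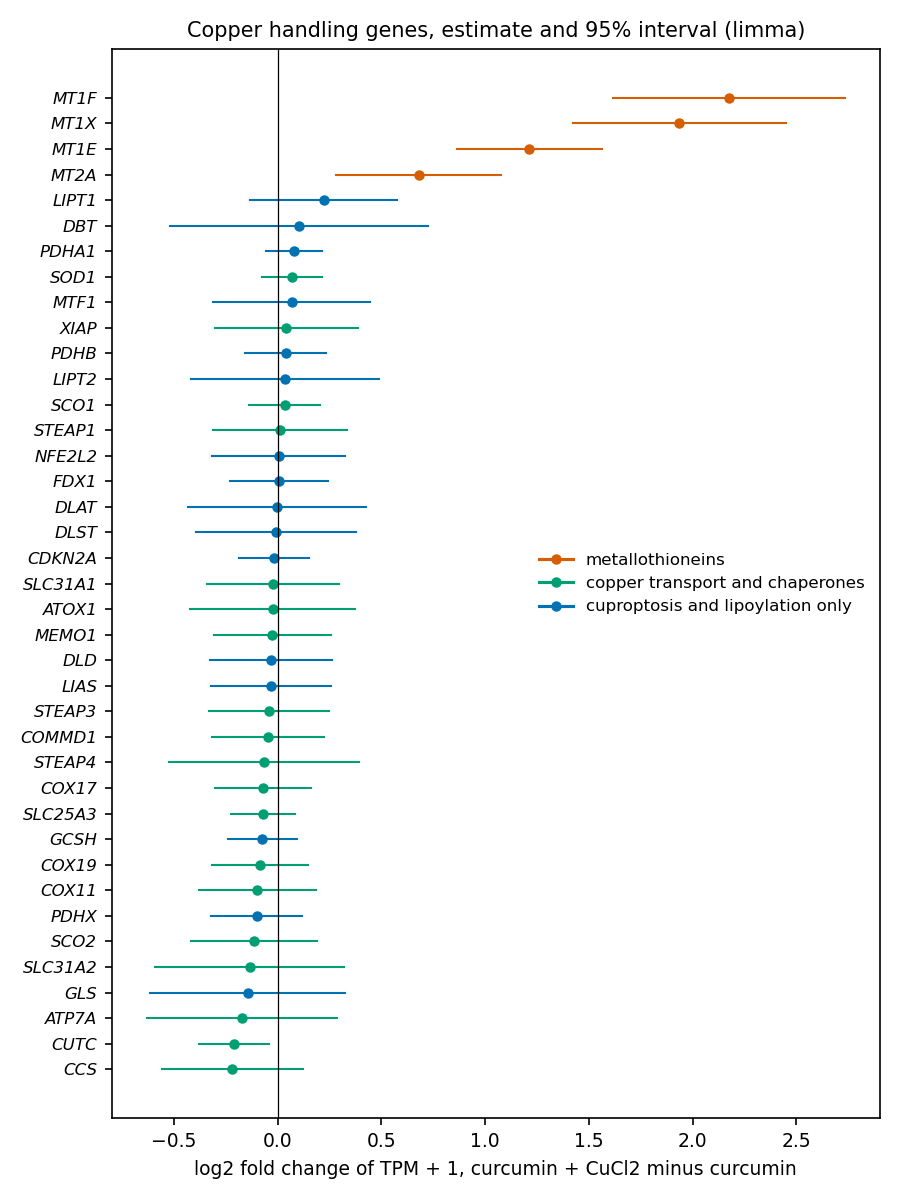
Log2 fold change of TPM + 1, curcumin with CuCl2 minus curcumin, with its 95% interval from limma (bars) for metallothionein, copper transport and cuproptosis genes, ordered by estimate. The intervals of MT1X, MT1E, MT2A and CUTC exclude 0. That of MT1F does too, but MT1F passed the expression minimum only through the CuCl2 libraries and had to differ. The others include 0.

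Heat shock genes were examined because copper damages proteins. HSPA6, a strictly stress-inducible HSP70 gene, was at 1.06, 0.79 and 1.10 TPM with curcumin and at 2.01, 2.20 and 2.26 TPM with CuCl2 added. It was the fifth gene by p and its groups did not overlap (log2 fold change 0.67, 95% interval 0.35 to 0.99, limma unadjusted p = 0.000972, adjusted p = 1). Without the second PA-Cur library its log2 fold change was 0.60. Levels of about 1 and 2 TPM are low, and its near copy HSPA7 was at 0.08 TPM or less in these 6 libraries. The major inducible HSP70 genes HSPA1A and HSPA1B share most of their sequence and were therefore summed. Their sum was 309.04, 301.33 and 291.38 TPM with curcumin and 324.85, 350.37 and 350.88 TPM with CuCl2 added, a ratio of 1.14 with no overlap. HSPA1A alone had a log2 fold change of 0.20 (limma unadjusted p = 0.0162). With palmitic acid alone the sum was 354.55 to 390.97 TPM, above both groups. Of the 23 genes of the list, 2 had unadjusted p under 0.05, both higher, against 0.766% of all genes, and the median was 0.03. DNAJB1, the HSP40 partner of HSP70, had a log2 fold change of 0.09 (95% interval -0.06 to 0.24) and overlapped.

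Genes of hypoxia and glycolysis made the list with the most members past an unadjusted p of 0.05. These genes include targets of HIF-1, the transcription factor that oxygen-dependent prolyl hydroxylation marks for degradation. Of 28 tested, 6 had unadjusted p under 0.05 and were higher, against 0.766% of all genes, and 0 were lower. In 8 the groups did not overlap, all higher, against 2.63% of all genes. The median of the list was 0.08 against -0.01 over all genes, and 21 of 28 estimates were above 0. None passed the adjusted threshold.

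CA9, which encodes the cell surface enzyme carbonic anhydrase 9, stood at 13.72, 8.23 and 7.95 TPM with curcumin and at 13.92, 16.87 and 18.61 TPM with CuCl2 added. The groups were separated by only 0.2 TPM between the first PA-Cur and the first PA-Cur-Cu library, while the others lay farther apart. Its log2 fold change was 0.70 (95% interval 0.28 to 1.12, limma unadjusted p = 0.00438, adjusted p = 1). Without the second PA-Cur library the log2 fold change of CA9 was 0.60. The glucose transporter gene SLC2A3 had 8.33, 8.91 and 7.78 TPM against 10.20, 13.80 and 10.94 TPM, or 0.43. SLC2A1, the other widely expressed glucose transporter gene, had 65.05, 68.67 and 61.79 TPM against 79.28, 73.96 and 98.43 TPM, or 0.35. Both had no overlap between the groups. BNIP3, a mitophagy receptor gene, had 65.17, 65.54 and 59.23 TPM against 74.05, 87.56 and 78.51 TPM, or 0.33.

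EGLN3, one of the prolyl hydroxylases, had 8.20, 7.07 and 8.34 TPM with curcumin and 9.13, 11.65 and 10.23 TPM with CuCl2 added, a log2 fold change of 0.35. ADM, which encodes the vasodilator adrenomedullin, had 57.10, 47.84 and 54.06 TPM against 57.17, 68.22 and 62.87 TPM, or 0.24. The margin of ADM between the groups was below 0.1 TPM. NDRG1 and HK2, at 0.42 and 0.37, overlapped between groups. VEGFA, the angiogenic growth factor gene and a classical HIF-1 target, had 0.05, ANKRD37 had -0.03 and HIF1A itself -0.15, all with unadjusted p above 0.5. HK2 is itself an enzyme of glycolysis. Among other enzymes of glycolysis, chosen after their values were seen, GAPDH had 0.08 and PGK1 0.21, neither overlapping. PKM and TPI1 had -0.00.

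Without the second PA-Cur library the median of the list was 0.12, and that over all genes also moved up, to 0.03. The count of higher genes at unadjusted p under 0.05 was then 6. That count depended on other single libraries. It was 3 without the third PA-Cur library, 3 without the second PA-Cur-Cu library and 4 without the third PA-Cur-Cu library. With the mitochondrial share of each library as a covariate, an alternative added after the data were seen, it was 9 higher and 1 lower, while the share of all genes higher at p under 0.05 was 1.87%. SLC2A3, SLC2A1 and ADM were lower with curcumin than with palmitic acid alone by 0.50, 0.36 and 0.26 on the log2 scale. In the same comparison CA9, HK2, NDRG1 and BNIP3 had log2 fold changes of -0.29, -0.43, -0.32 and -0.07. EGLN3 was higher with curcumin by 0.19, and the median of the list was -0.09. These comparisons share the PA-Cur libraries and are not independent of each other.

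**Figure D4:**
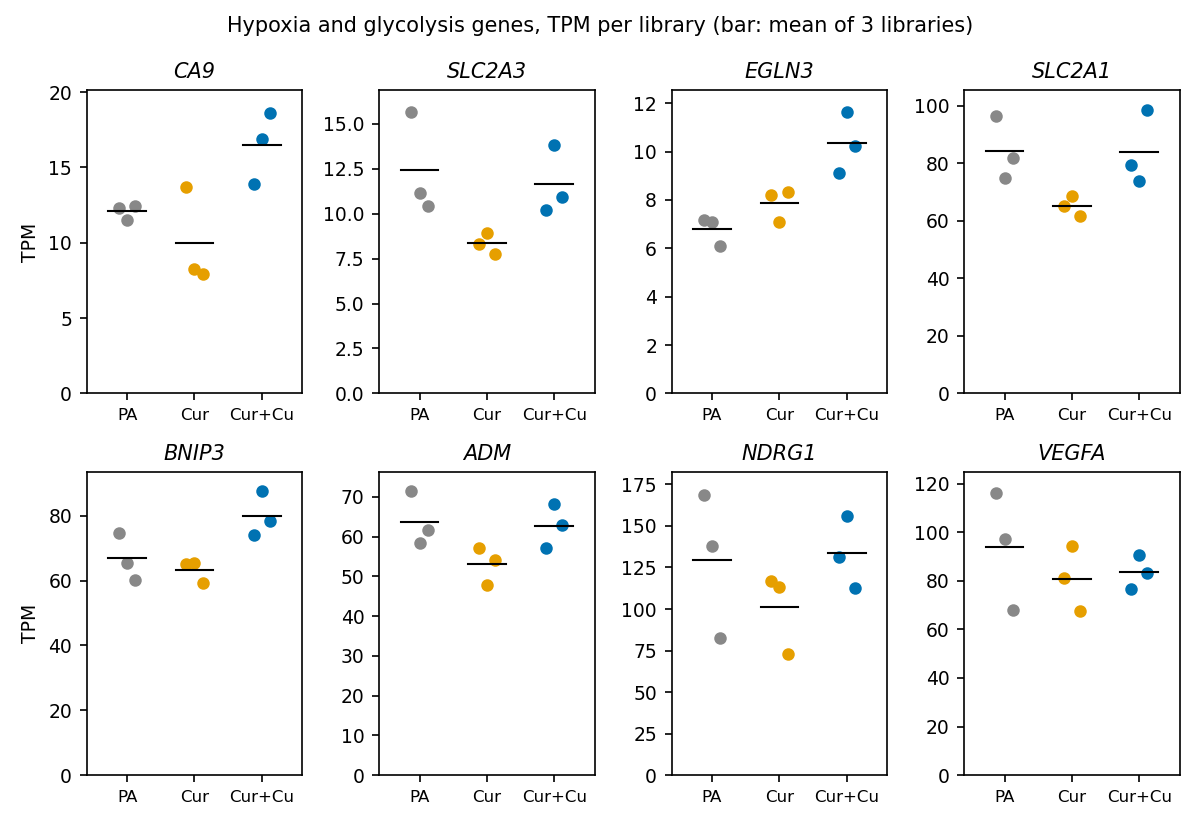
TPM (vertical axis, linear, from 0) of 8 hypoxia and glycolysis genes in each library of palmitic acid alone (PA), with curcumin (Cur) and with curcumin and CuCl2 (Cur+Cu); points are libraries and bars are means of 3. In the first 6 panels the Cur+Cu points lie above the Cur points, by a narrow margin for CA9 and ADM, and NDRG1 and VEGFA overlap.

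In curcumin against palmitic acid alone, 264 of 13443 genes (1.96%) passed the adjusted threshold in limma. Among them were the NRF2 targets HMOX1, NQO1, GCLM, SRXN1 and FTL, the cytokine gene IL6, the keratin gene KRT17, MUC1 and PLIN4. With CuCl2 added none of these 9 genes had a log2 fold change from curcumin alone beyond 0.28 in size. HMOX1, the heme oxygenase gene, was 813.54, 776.07 and 760.18 TPM with curcumin and 732.18, 718.61 and 741.51 TPM with CuCl2 added. The groups did not overlap, but the log2 fold change was -0.10 (95% interval -0.28 to 0.08, limma unadjusted p = 0.242). Palmitic acid alone gave 113.88 to 143.17 TPM. NQO1, a quinone reductase gene, had 537.03, 558.85 and 557.21 TPM against 568.86, 542.39 and 542.86 TPM (95% interval -0.13 to 0.13). GCLM, a subunit of the enzyme that limits glutathione synthesis, had 0.19 (-0.09 to 0.48), SRXN1, which repairs peroxiredoxins, 0.07 and the ferritin light chain gene FTL 0.04. Of 39 table lines for 38 NRF2 target genes, 38 lines were counted, without AKR1B10, which averaged under 1 TPM in the libraries without CuCl2. None had unadjusted p under 0.05 (1.60% of all genes), the median was -0.03, and 37 had an interval within 1.5-fold.

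Of the genes lower with curcumin than with palmitic acid alone, IL6 had 65.8, 63.57 and 62.61 TPM with curcumin and 70.52, 66.84 and 64.3 TPM with CuCl2 added. The groups overlapped (log2 fold change 0.07, 95% interval -0.10 to 0.24). KRT17 had 0.12 (-0.12 to 0.35) and also overlapped. MUC1, a mucin gene, had a mean of 16.7 TPM against 20.4 TPM, with no overlap, or 0.28 (-0.07 to 0.63). PLIN4, a lipid droplet coat protein gene that was higher with curcumin, had 19.85, 20.63 and 17.87 TPM against 14.95, 17.55 and 16.1 TPM. Its groups did not overlap (log2 fold change -0.25, limma unadjusted p = 0.0341), and its level with palmitic acid alone was 5.90 to 6.42 TPM.

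Lipid genes were examined because the cells carried a fatty acid load. ELOVL6, which elongates palmitic acid to stearic acid, stood at 5.07, 7.28 and 5.36 TPM with curcumin and at 12.98, 10.21 and 6.30 TPM with CuCl2 added. The third library with CuCl2 lay inside the range of curcumin alone, and the log2 fold change of 0.61 had limma unadjusted p = 0.0232. PPARA, a nuclear receptor gene of fatty acid oxidation, had 0.80, 0.93 and 0.73 TPM against 1.69, 1.68 and 1.11 TPM, or 0.45. Like MT1F it averaged under 1 TPM in the 6 libraries without CuCl2 and so passed the minimum only through those with it, so it had to lie higher and its p is not given. Without it, the medians of fatty acid oxidation, fatty acid synthesis and cholesterol synthesis lists were -0.03, -0.02 and 0.01. For cholesterol synthesis all 25 intervals lay within 1.5-fold.

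Most other lists were centred near 0. Histone genes had 17 of 20 estimates below 0 and a median of -0.07, which was -0.03 without the first PA-Cur-Cu library. In 6 of them the groups did not overlap, all lower (3.61% of all genes), and 2 had unadjusted p under 0.05 and were lower (0.833%). H3C2 had 16.26, 11.39 and 14.85 TPM against 10.1, 9.17 and 10.82 TPM, or -0.45 (unadjusted p = 0.0251). H2BC8 was lower by a like amount, at -0.35. Most histone messages end without a poly(A) tail and are poorly captured by libraries of polyadenylated RNA. Interferon-stimulated genes had 25 of 31 estimates below 0 and a median of -0.07, but 0 with unadjusted p under 0.05 (1.60% of all genes). Their groups overlapped in all but 1 of the 31, and 6.24% of all genes had no overlap.

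Immediate early genes had 13 of 22 estimates below 0, a median of -0.03 and 1 gene with unadjusted p under 0.05, which was lower (0.833% of all genes). That gene, FOS, which encodes a subunit of the transcription factor AP-1, had 76.7, 53.88 and 46.19 TPM with curcumin and 37.68, 43.12 and 42.31 TPM with CuCl2 added, or -0.48 (unadjusted p = 0.0455). The first PA-Cur library was well above the other 2 of its group. FOSB overlapped between groups (-0.35, unadjusted p = 0.181), and there too the first PA-Cur library was the highest of its group, at 5.36 TPM against 2.68 and 2.58. No gene had unadjusted p under 0.05 in the lists of the proteasome (32 genes), nuclear respiratory chain (36), endoplasmic reticulum chaperones (22), ATF4 targets (27), antioxidant enzymes (24), cell cycle (30) or p53 targets (24). In the first 5 of these every 95% interval lay within 1.5-fold. NF-κB and cytokine genes, 24 in number, had none either, with a median of -0.01. Over all genes the share was 1.60%, so these counts of 0 say little by themselves.

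**Figure D5:**
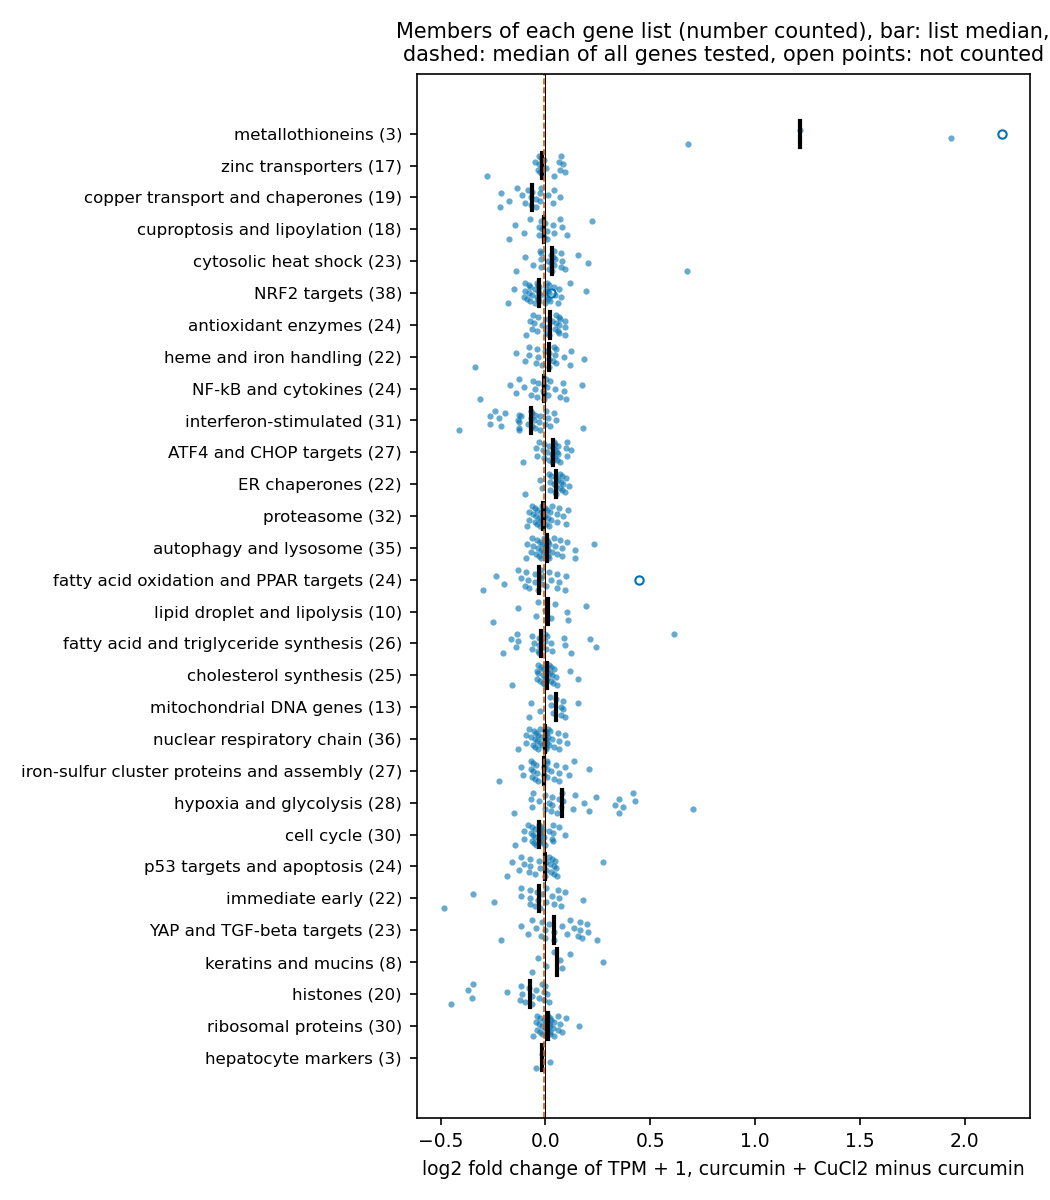
Log2 fold change of TPM + 1, curcumin with CuCl2 minus curcumin (horizontal axis), of each tested member (points) of the gene lists with at least 3 counted members; short bars are list medians, the dashed line is the median of all genes tested, and open points are MT1F, PPARA and AKR1B10, which passed the expression minimum only through the CuCl2 libraries. The metallothioneins lie apart from 0 and the medians of the other lists shown lie between -0.07 and 0.08.

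The genes of lowest unadjusted p outside these lists included a few higher by about 0.2 to 0.4 on the log2 scale. NMNAT1, a nuclear enzyme of NAD synthesis, had 4.50, 4.67 and 3.97 TPM with curcumin and 6.43, 6.10 and 6.23 TPM with CuCl2 added, or 0.43. TMEM45A, a membrane protein gene, had 0.36, MFAP5, a microfibril protein gene, 0.24 and SUPT4H1, a transcription elongation factor gene, 0.22. On the lower side, CHN2, which encodes a Rac GTPase activating protein, had 17.82, 20.38 and 17.67 TPM against 10.17, 13.60 and 12.59 TPM. Its log2 fold change was -0.59 (95% interval -0.89 to -0.28, limma unadjusted p = 0.00178), and the values with CuCl2 were close to the 11.44 to 14.95 TPM of palmitic acid alone. GSDMB, a pore-forming gasdermin gene, had -0.44, the chromatin remodeller gene CHD7 -0.35 and TCF25 -0.24. MIR924HG had -0.40, OGFOD3 -0.39, OGFOD2 -0.30 and the tRNA methyltransferase gene TRMT1 -0.17. All these genes had adjusted p = 1 and no overlap between groups, which the rule that named them required.

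For 3 further genes the difference was smaller once near copies or overlapping genes were added to them. How reads were divided between these genes was not tested. SLX1A, a nuclease subunit gene with a near-identical copy, was -0.55, from 39.3 ± 4.98 to 26.5 ± 3.15 TPM. Its copy SLX1B went the other way, from 13.2 ± 9.70 to 21.4 ± 4.26 TPM, and their sum was 52.5 and 47.9 TPM on average, a ratio of 0.912. MAGEA9B was -0.54, while MAGEA9 went from 26.4 ± 1.28 to 27.5 ± 1.21 TPM and their sum was 35.9 ± 1.90 and 33.8 ± 2.13 TPM. The readthrough gene RPL36A-HNRNPH2 was 0.59, while its sum with RPL36A and HNRNPH2 had a ratio of 1.03. In each case the sum differed by less than the single line.

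The spread of the libraries sets what could have been seen. The 95% interval of the log2 fold change reached a median of 0.337 to either side of the estimate. It lay within 1.5-fold in either direction for 10688 genes (79.5%) and within 2-fold for 12786 genes (95.1%). By estimate alone, 68 genes were at least 2-fold higher and 51 at least 2-fold lower. For single genes outside the metallothioneins a 1.5-fold difference of TPM + 1 therefore mostly lay outside that gene's interval. That makes no allowance for the number of genes tested. Folds of TPM + 1 understate differences of low genes: HSPA6 had a ratio of mean TPM of 2.19 at a log2 fold change of 0.67. With 0.1 TPM added in place of 1, the interval lay within 1.5-fold for 8929 genes.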

How the data were processed

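RNA was extracted with TRIzol and libraries made with a stranded Illumina kit for polyadenylated RNA, per the labels' protocols. The authors deposited TPM values for 62703 table lines in 9 libraries. The submitters' processing notes name HISAT2 2.1.0, RSEM 1.3.3 and the build GRCh38.p13, without roles or an annotation release. RSEM divides reads that match several genes by estimation, so values of near copies are uncertain. TPM keeps no depth, so no count model or counting interval was used.

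Columns were matched to samples by name. Genes averaging 1 TPM or more (13443, holding 99.7% of the TPM) were taken as log2(TPM + 1), which understates differences of low genes. A mean per group was fitted to all 9 libraries, which share 1 estimate of spread, in limma 3.58.1 (R 4.3.3) with a variance trend. Tests were two-sided with Benjamini-Hochberg adjustment over all genes kept and a threshold of 0.05. The code was tested on simulated data.

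The groups compared and the gene lists (34) were chosen with earlier results of these data known, so no list was tested and list medians support nothing by themselves. Named genes were, by rule, the 10 higher and 10 lower of smallest unadjusted p with a plain symbol, a mean of at least 5 TPM in the higher group and no overlap, all metallothionein and copper transport genes, up to 4 members of each other list with the largest difference, and 15 genes named in advance; the text prints a part of them. EGLN3, SLC2A1, ADM, VEGFA, ANKRD37, HIF1A, GAPDH, PGK1, PKM, TPI1, SLX1B, MAGEA9, RPL36A, HNRNPH2 and HSPA7 fall outside the rule and were chosen after their values were seen. Alternatives were 18 fixed settings and 2 added later (identical lines merged, mitochondrial share as a covariate). Coordinates and 50-base words are from GENCODE 29 on GRCh38, in which 13048 of the genes kept were found by identifier; promoters are from RefSeq on GRCh38.p14. Plots were made in Python 3.11.15 with matplotlib 3.10.9.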

Additional observations from a re-analysis of the deposited data

Results flagged for a closer look

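Among genes below the expression minimum, 2 were listed at 0 in all 6 libraries without CuCl2 and at 0.5 TPM or more in all 3 with it. MT1G, a metallothionein gene on chromosome 16 (56666731 to 56668065), was listed at 0.64, 0.77 and 1.00 TPM, a mean of 0.803 TPM. Of its 50-base words, 16.5% also occur in other genes, MT1X and MT2A among them, and how reads were divided between these genes was not tested. RPLP2P1, a ribosomal protein pseudogene on chromosome 6 (27965175 to 27965514), was listed at 0.51, 0.61 and 0.53 TPM, a mean of 0.55 TPM. Both values are near the lower end of what the table can show. No fold is given, since the other libraries were at 0.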

How the results depend on the processing

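The count of 0 genes past the threshold became 1 with 5 TPM added before the logarithm (MT1F), 3 without the expression minimum (MT1G at 0.85, RPLP2P1 at 0.63 and RN7SKP11 at -1.78 on the log2 scale) and 3 when only the 6 libraries compared were fitted (MT1X, MT1E and ENSG00000284964). Leaving out 1 library at a time gave 0 to 4, the 4 without the second PA-Cur library (MT1F, SNORA52, SNORA67 and ENSG00000278334), and the other alternatives, scaling and replicate block included, gave 0. Among the 163 named genes the count was 1 with 5 TPM added, 2 with the 6 libraries and 0 to 2 with a library left out. ENSG00000284964 was listed at 0 with curcumin and at 13.49, 11.54 and 15.11 TPM with CuCl2, but also at 12.51 TPM in 1 PA library. Genes with an interval within 1.5-fold numbered 26052 without the minimum, of 31912 tested, because more genes entered. They numbered 8929 with 0.1 TPM added, and 8990 to 9361 with 1 PA-Cur or PA-Cur-Cu library left out, against 10688 as reported. Genes with unadjusted p under 0.05, 215 as reported, numbered 614 with the mitochondrial share as a covariate, 910 without the minimum, 340 with the 6 libraries and 110 at a minimum of 5 TPM; the cause was not tested beyond the numbers of genes and libraries these settings imply. The summed metallothionein ratio (1.60 to 1.76 with a library left out) moved by less than an SD derived from the relative spread of the sums within both groups. The metallothionein and hypoxia medians (1.09 to 1.33 and 0.06 to 0.12) moved by less than the SD of the list median between replicates, 0.140 and 0.0641. In 34 of the 163 named genes the sign changed in at least 1 of 20 alternatives, and none of these passed the threshold in any. Libraries with the same number deviated together at correlations of only 0.07, 0.07 and -0.01 across genes, so the numbers were not taken as pairs; with a replicate block 0 genes passed, and MT1X and MT1E each had adjusted p = 0.0641. The depth behind each value is unknown, and values near 1 TPM are the least certain.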

Other observations

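MIR210HG, the host transcript of the hypoxia-induced microRNA miR-210, was in no list and was singled out after its values were seen. It stood at 0.96, 0.46 and 1.37 TPM with curcumin and at 2.21, 2.57 and 2.33 TPM with CuCl2 added, with no overlap (log2 fold change 0.83, limma unadjusted p = 0.00202). With palmitic acid alone it was 1.97, 1.40 and 1.57 TPM. IGFBP3, which encodes a binding protein of insulin-like growth factors and was likewise chosen after the fact, had 47.56, 48.55 and 45.54 TPM with curcumin and 56.32, 63.96 and 58.63 TPM with CuCl2 added (log2 fold change 0.33, unadjusted p = 0.0109). Its level with palmitic acid alone was higher than both, at 84.48 to 112.97 TPM. Neither gene passed the adjusted threshold.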
